A study of Gallus gallus with 21 samples.

Results

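AMP-activated protein kinase (AMPK) is an energy sensor made of 3 subunits, and the genes described here are the 7 that encode them, PRKAA1, PRKAA2, PRKAB1, PRKAB2, PRKAG1, PRKAG2 and PRKAG3. In chicken, PRKAA1 lies on the Z chromosome, of which males (ZZ) carry a pair and females (ZW) a single copy, while its paralogue and its partner genes are autosomal. PRKAA1 was chosen from these data for its higher values in males, so its difference between the sexes is given as a description with no test. The partners were taken by name, and the question was whether they followed the male excess of PRKAA1 in each tissue. Of 19874 probe sets in the data, 7 were annotated to a subunit gene alone, and they covered 4 of the 7 genes. PRKAA1 (chromosome Z) and PRKAB1 (chromosome 15) had 1 probe set each, PRKAB2 (chromosome 8) had 3 and PRKAG2 (chromosome 2) had 2. PRKAA2 (chromosome 8) and PRKAG1 (chromosome 34) were matched by no probe set and were not analysed here. PRKAG3 (chromosome 7) was listed only on a probe set shared with another gene, and no value is given for it.

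The alpha subunit carries the kinase, the beta subunit is the scaffold that holds the complex together and binds glycogen, and the gamma subunit binds AMP, ADP and ATP. When AMP rises, the kinase is activated through phosphorylation of alpha by upstream kinases, which turns on catabolism and turns down lipid and protein synthesis. A working complex takes 1 subunit of each kind, so alpha from Z must pair with beta and gamma from autosomes.

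Expression was measured on Affymetrix Chicken Genome arrays in male and female White Leghorn embryos incubated for 18 days, with 4 embryos of each sex. The labels give no treatment and no altered allele in any group, and sex was read from the gonads and Müllerian ducts. Brain (3 males, 4 females) and heart (3 males, 4 females) were the somatic tissues, and the left gonads were testes (4 males) and ovaries (3 females), 21 arrays in all. Brain samples were the diencephalon with what remained after the cerebellum, optic lobes and hemispheres were taken off, and heart samples were a piece of the apex. Values are log2 signals, so a difference of 1 is a doubling, and levels of different probe sets are not compared.

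The arrays carried the marks of their labels. The mean over 5 measured neuron and glia markers was 12.5 to 12.93 in brain arrays, and that over 7 heart muscle markers was 14.57 to 14.63 in hearts. In hearts, 4 measured neuron and glia markers averaged 4.63 to 5.60. In brains, 3 measured heart muscle markers averaged 5.72 to 7.28. Among the gonads, 5 testis markers averaged 11.43 to 11.95 in testes and 7.45 to 7.75 in ovaries, and 4 ovary markers averaged 2.24 to 2.35 in testes and 10.72 to 11.21 in ovaries. Of the testis markers, AMH (mean 14.25 in testes, 13.02 in ovaries) and DMRT1 (13.83 and 13.45) were high in both. SOX9 (8.39 and 3.00), CLDN11 (12.61 and 6.68) and INHA (9.47 and 1.83) set the testes apart. The 3 W-linked markers averaged 2.47 to 3.16 in males and 9.57 to 10.53 in females. A different RNA kit served for the gonads, and its part in differences between gonads and the other tissues cannot be told apart from tissue. Each tissue has 3 or 4 arrays per sex, and that number limits the precision of every value below.

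PRKAA1 encodes the alpha 1 catalytic subunit. In brain it read 5.20, 5.19 and 4.80 in males, against 3.58, 3.94, 3.51 and 3.58 in females. The lowest male lay above the highest female, as the sexes did not overlap. In heart the values were 5.52, 5.86 and 6.05 in males, against 3.95, 4.60, 4.18 and 4.04 in females, again with a gap between the sexes. In gonads PRKAA1 read 6.75, 7.19, 6.89 and 6.98 in testes, against 5.31, 5.89 and 5.23 in ovaries. Thus all male arrays stood above all female arrays in each of the 3 tissues, a pattern shown by 5.19% of probe sets in brain, 6.11% in heart and 20.3% in gonads. Since that is the contrast on which the gene was picked, nothing is read from it.

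The male-to-female fold-change of PRKAA1 was 2.66 in brain (5.06 ± 0.23 against 3.65 ± 0.20, SD, n = 3 and 4; 95% interval of the fold-change 2.00 to 3.53). It was 3.06 in heart (5.81 ± 0.27 in males against 4.19 ± 0.29 in females; interval 2.31 to 4.07) and 2.78 in gonads (6.95 ± 0.19 in testes against 5.48 ± 0.36 in ovaries; interval 2.09 to 3.69). These intervals take no account of the choice of PRKAA1 on this contrast, so they are not read as a test of its excess. The 3 intervals overlap, which does not show an excess of equal size, and whether the excess of PRKAA1 differed between tissues was not tested. All female brain values were under 4.0, which is the lowest mean that the higher sex of any probe set in the table reached. With the female brain mean set to 4.0 the fold-change in brain was 2.09. The lowest female heart value, 3.95, was also under 4.0.

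**Figure D1:**
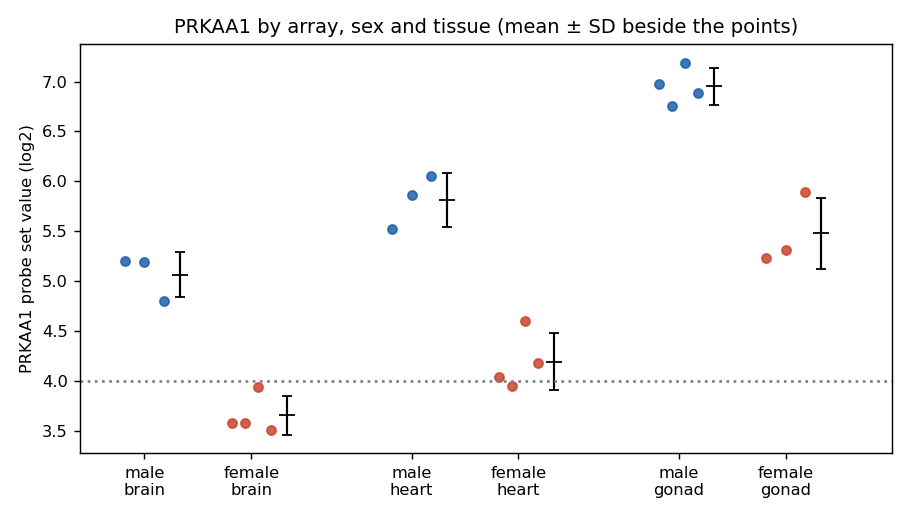
Log2 value of the PRKAA1 probe set in each array (points), by sex and tissue, with the mean and SD of each group beside them; the dotted line is 4.0, the lowest mean of the higher sex among probe sets with values. All male points lie above all female points of the same tissue, and both sexes are highest in gonads.

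Over the 6 groups of sex and tissue, PRKAA1 was highest in testes (6.95), followed by male heart (5.81), ovary (5.48), male brain (5.06), female heart (4.19) and female brain (3.65). Male heart and ovary overlapped. The other neighbours in this order did not overlap. However, ovary and male brain (lowest ovary 5.23, highest male brain 5.20) were separated by less than the SD within either group. The same held for male brain and female heart (4.80 and 4.60) and for female heart and female brain (3.95 and 3.94). A level of a bulk sample cannot tell more RNA per cell from more cells of a type that makes it.

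The place of PRKAA1 among the genes of its own chromosome is a description only, since the gene was picked for this difference. Its log2 difference of 1.41 in brain ranked 11 among 414 Z-linked genes, whose median was 0.65 (1.57-fold). With the female brain mean set to 4.0 and the other genes left as they are, the difference was 1.06 and the rank 70. In heart its 1.61 ranked 2 of 387, behind C7 alone, with a Z median of 0.59 (1.5-fold). In gonads its 1.47 ranked 58 of 425, with a Z median of 0.73 (1.66-fold). Of the Z-linked genes, 91.5% were higher in males in brain, 87.1% in heart and 81.4% in gonads, while the medians over autosomal genes were -0.01, 0.03 and -0.01. The lower rank in gonads came with a higher upper quartile of the Z-linked genes, 1.19 in gonads, 0.96 in brain and 0.87 in heart.

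The genes beside PRKAA1 did not share 1 size of difference. TTC33, the next protein-coding gene on one side, was higher in males by 1.56 in brain, 1.53 in heart and 1.49 in gonads, with adjusted p = 0.00962, 0.0119 and 0.00135 (limma). A call of sex bias required, here and below, an adjusted p under 0.05 together with a fold-change above 1.5. On the other side RPL37, a protein of the large ribosomal subunit, was higher in males by 0.42, 0.21 and 0.32 and was called in no tissue. Its adjusted p was 0.0173 in brain, 0.418 in heart and 0.0125 in gonads (limma). In brain and gonads RPL37 thus missed the fold-change minimum only. The immediate neighbours of PRKAA1 thus had differences of unlike size in each tissue, though the gap between them was not tested. They were also read at unlike signal, with group means of 14.09 to 15.26 for RPL37 and 4.57 to 7.22 for TTC33. Whether the high signal of RPL37 bears on the small size of its differences was not tested, so the gap is not read as one of gene dose.

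Further out, several genes were called in gonads and in no other tissue with values. DAB2 had values in gonads alone, and C7 and FYB1 had none in brain. Calls were common in gonads, with 12.8% of all probe sets higher in males and 13.8% higher in females. In brain these shares were 1.27% and 0.31%, and in heart 1.34% and 0.393%. Calls in gonads alone are therefore not read as a trait of these neighbours. C7, a component of complement, was higher in testes by 4.41 (adjusted p = 4.57e-05), and PLCXD3, a phospholipase-like protein, by 3.46 (adjusted p = 7.57e-09). OSMR, the oncostatin M receptor, was higher in testes by 1.61 (adjusted p = 0.000321). In contrast, FYB1 and DAB2, both adaptor proteins, were lower in testes, with differences of -1.05 and -1.87 (adjusted p = 0.00276 and 0.000465). C5orf51 was higher in males by 1.0 in brain and 1.06 in heart (adjusted p = 0.00135 and 0.000873), but its 0.40 in gonads was not called (adjusted p = 0.0681). OXCT1, a ketone-body enzyme, and RICTOR, a subunit of mTOR complex 2, were called in no tissue. The 0.51 of OXCT1 in brain missed the fold-change minimum only (adjusted p = 0.0195, limma). Whether these sex differences themselves differed between tissues was not tested here for genes other than the subunits.

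**Figure D2:**
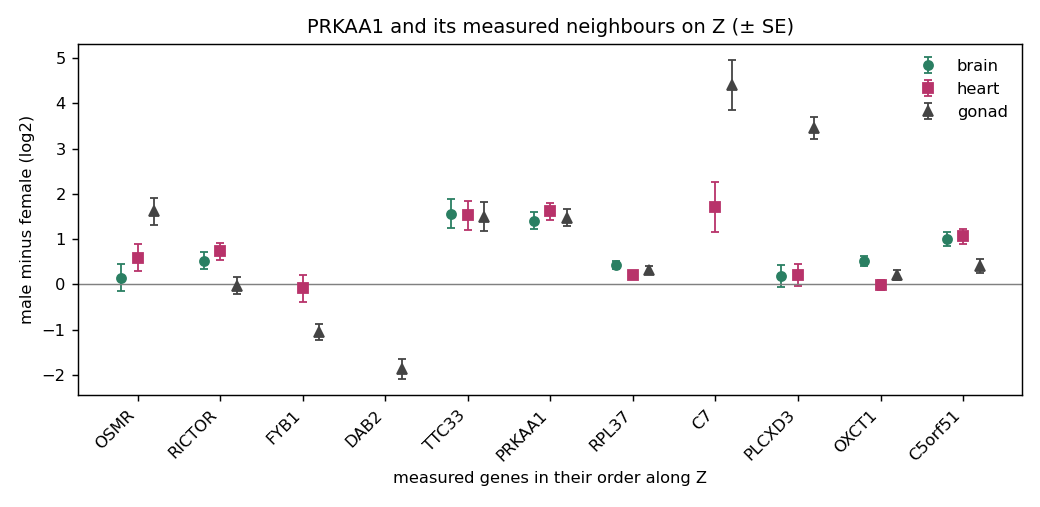
Male minus female log2 difference, with its standard error, of PRKAA1 and the 5 measured genes on each side in their order along Z, by tissue. TTC33 and PRKAA1 lie between 1.41 and 1.61 in all tissues, RPL37 between 0.21 and 0.42, and the gonad values of the other genes range from -1.87 for DAB2 to 4.41 for C7.

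The beta 1 scaffold PRKAB1 did not follow PRKAA1. In brain it read 6.82, 7.42 and 6.78 in males, against 7.25, 7.74, 7.11 and 7.33 in females. In heart it read 8.67, 8.41 and 8.39 in males, against 8.61, 8.47, 8.57 and 8.25 in females. The sexes overlapped in both tissues, with differences of -0.35 in brain (95% interval -0.71 to 0.01, adjusted p = 0.509) and 0.01 in heart (-0.35 to 0.37, adjusted p = 0.996). The upper ends of these intervals correspond to a male-to-female fold-change of 1.01 in brain and 1.30 in heart.

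In gonads PRKAB1 ran the other way from PRKAA1. It read 9.27, 9.55, 9.57 and 9.48 in testes, against 10.14, 9.82 and 10.16 in ovaries, with every testis below every ovary. The difference was -0.57 (SE 0.17, adjusted p = 0.0152), and since the fold-change of 1.49 missed the minimum of 1.5 it was not called. It passed that minimum when the embryo of female 20, male 19 or male 21 was left out, with differences of -0.68, -0.60 and -0.61. Without female 2 the difference was -0.51 and missed the p threshold as well (adjusted p = 0.0753).

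PRKAB2, the beta 2 scaffold, is measured by 3 probe sets, here named A (no brain values), B (no gonad values) and C, which has values in all tissues and carries the suffix for probes that match several transcripts. By probe set C, males had 6.49, 5.78 and 6.29 in brain, and females 6.37, 6.47, 6.31 and 6.32. In heart C gave 8.22, 7.95 and 8.16 in males and 7.53, 8.11, 8.0 and 8.26 in females. In gonads it gave 5.96, 6.47, 6.24 and 6.26 in testes and 6.07, 6.47 and 6.34 in ovaries. The sexes overlapped in each tissue, with differences of -0.18, 0.13 and -0.06 (adjusted p = 0.809, 0.894 and 0.836).

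Probe sets A and B of PRKAB2 gave no call either. Their differences were 0.13 in brain (B, adjusted p = 0.827), 0.19 and 0.24 in heart (A and B, adjusted p = 0.813 and 0.608) and -0.27 in gonads (A, adjusted p = 0.283). The largest male excess that any of the 95% intervals for PRKAB2 allowed was 1.34-fold in brain (B), 1.49-fold in heart (A) and 1.25-fold in gonads (C). No probe set of PRKAB2 had sexes that did not overlap.

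PRKAG2, the gamma 2 subunit with the nucleotide-binding sites, was the partner with a called sex difference, and that difference was a female excess in gonads. Its brighter probe set, named A here, also carries the suffix for probes that match several transcripts. It read 9.74, 9.49, 9.68 and 9.31 in testes, against 10.06, 10.55 and 10.38 in ovaries. All testes lay below all ovaries. The mean was 9.56 ± 0.19 in testes against 10.33 ± 0.25 in ovaries (SD, n = 4 and 3), a difference of -0.77 (SE 0.12, 95% interval -1.03 to -0.52) or a 1.71-fold higher value in ovaries (adjusted p = 9.22e-05, limma).

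In the somatic tissues PRKAG2 A hardly varied. It read 10.50, 10.57 and 10.63 in male brains, against 10.46, 10.51, 10.49 and 10.40 in female brains. In hearts it read 10.47, 10.59 and 10.49 in males, against 10.46, 10.68, 10.47 and 10.62 in females. The differences were 0.10 in brain (adjusted p = 0.846) and -0.04 in heart (adjusted p = 0.974), with overlapping sexes and upper bounds of 1.28-fold and 1.16-fold for a male excess. Every testis read below every brain and heart array. The ovaries at 10.06 and 10.38 also lay below the lowest of these arrays, 10.40, and the ovary at 10.55 lay within their range. Ovaries alone were not tested against brain or heart.

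Whether the sex difference of the partners differed between tissues was tested for gonads less brain and for heart less brain. Gonads less heart was not tested, so the -0.57 of PRKAB1 in gonads was not set against its 0.01 in heart. For PRKAG2 A the sex difference in gonads less that in brain was -0.88 (SE 0.17, 95% interval -1.24 to -0.52, adjusted p = 0.00179), where 14.6% of all probe sets passed the same test. For heart less brain it was -0.14 (adjusted p = 0.882), and 0.0538% of probe sets passed. The second PRKAG2 probe set, B, did not pass for gonads less brain (-1.08, 95% interval -2.27 to 0.10, adjusted p = 0.232). The corresponding gonad-less-brain values were -0.22 for PRKAB1 (adjusted p = 0.631) and 0.12 for PRKAB2 C (adjusted p = 0.835), and no partner probe set passed for heart less brain.

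The second probe set of PRKAG2, B, was noisier. In testes it read 3.79, 5.84, 5.76 and 5.37, against 5.95, 6.29 and 6.48 in ovaries. Testes again lay below ovaries, with the testis of embryo 16 far below the other testes, and the difference of -1.05 (SE 0.40) was not called (adjusted p = 0.0516). In brain and heart it differed by 0.03 and 0.22 with overlapping sexes (adjusted p = 0.992 and 0.929) and intervals that reached a male excess of 1.83-fold and 2.09-fold, wider than those of any other partner probe set.

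**Figure D3:**
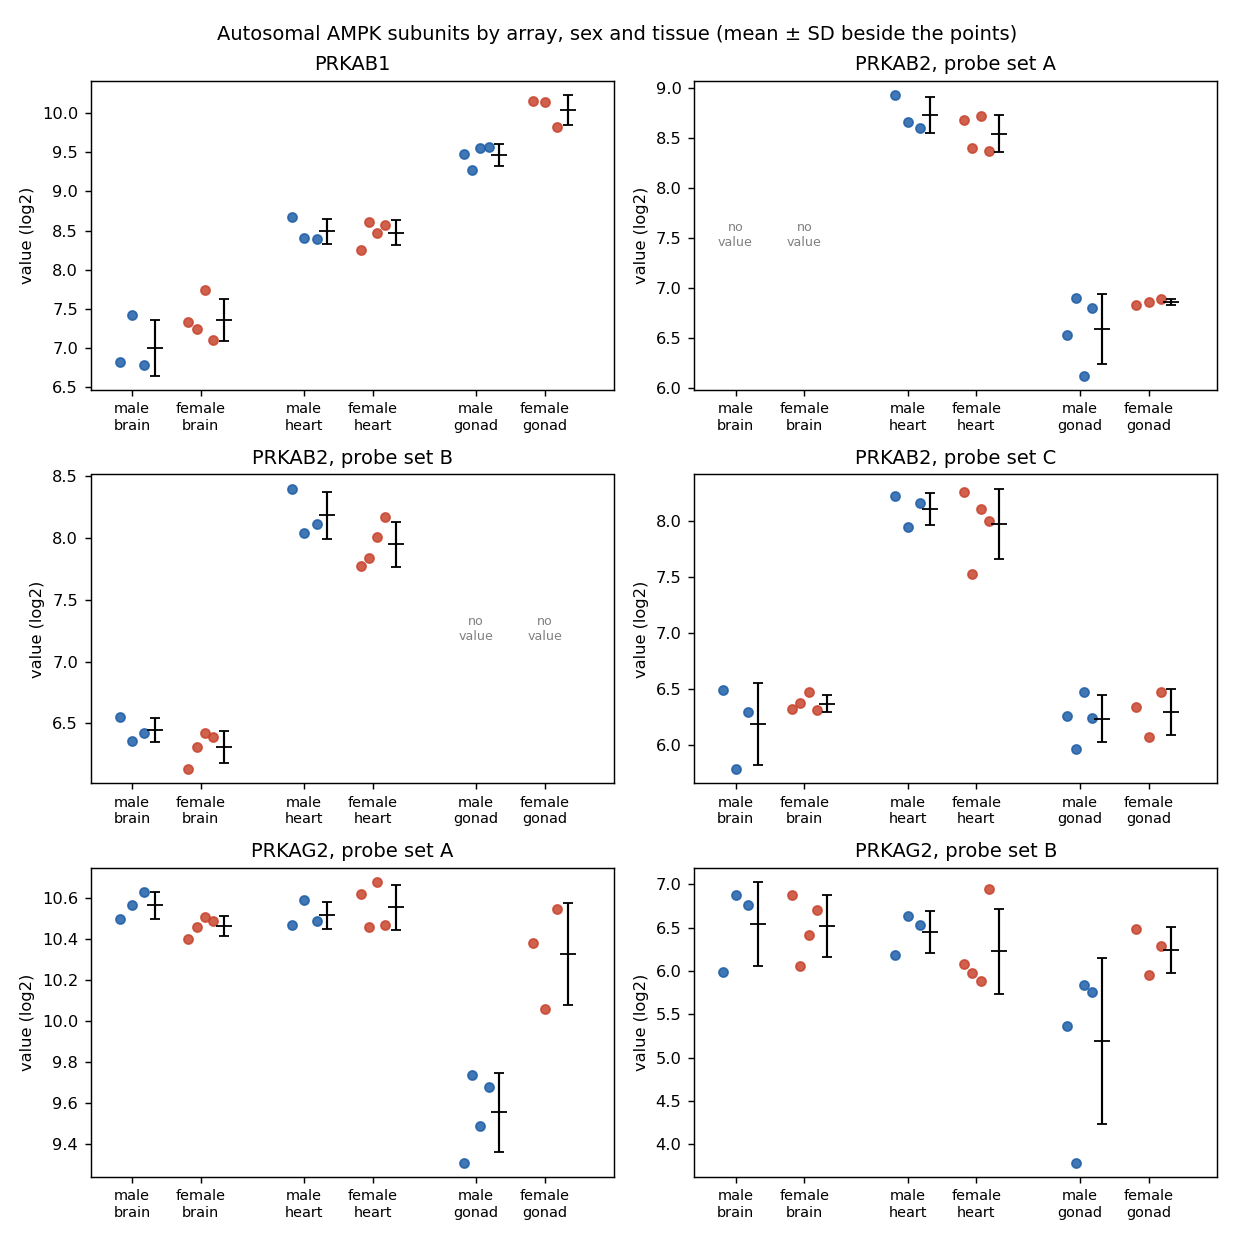
Log2 value of each autosomal subunit probe set in each array (points), by sex and tissue, with the mean and SD of each group beside them; each panel has its own axis and levels are not comparable between panels. In gonads every testis lies below every ovary for PRKAB1 and for both probe sets of PRKAG2, and PRKAB2 is highest in heart in both sexes.

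Counted by gene on the brightest probe set, 0 of 3 partners were called in brain, 0 of 3 in heart and 1 of 3, PRKAG2, in gonads, in the female direction. Over all probe sets with values, 1.27% were called higher in males and 0.31% higher in females in brain, 1.34% and 0.393% in heart, and 12.8% and 13.8% in gonads. No partner probe set had an unadjusted p under 0.05 in brain or heart. In gonads 3 of 5 partner probe sets had all testes below all ovaries, against 19.6% of all probe sets. Without the fold-change minimum PRKAB1 and PRKAG2 both passed as lower in testes, as did 16.5% of all probe sets. No partner was called in the direction of PRKAA1 in any tissue.

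**Figure D4:**
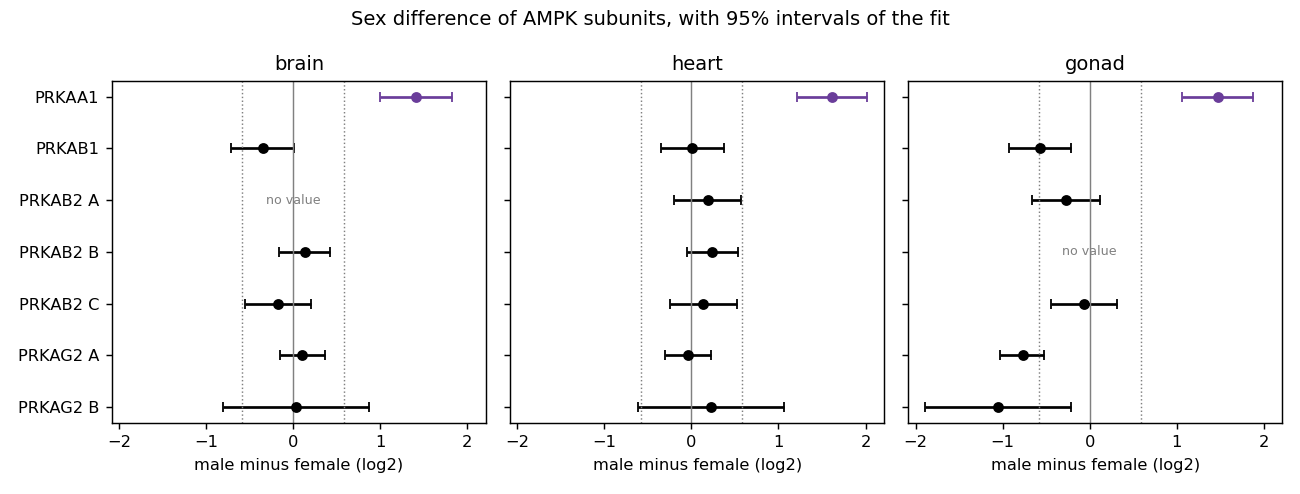
Male minus female log2 difference of each subunit probe set with the 95% interval of the fit, by tissue; dotted lines mark a fold-change of 1.5 either way. PRKAA1 lies between 1.41 and 1.61, the partners lie between -0.35 and 0.24 in brain and heart, and in gonads PRKAB1 and both PRKAG2 probe sets have intervals wholly below 0. The intervals of PRKAA1 take no account of its choice on this contrast and are not read as a test.

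Markers of other cell types also differed between testes and ovaries. Of the 5 adrenal and sympathetic markers 4 were measured, and their mean was 4.88 to 5.03 in testes and 5.02 to 8.99 in ovaries. Of these, CYP11A1, of steroid synthesis, read 12.32 to 12.43 in testes and 12.26 to 12.51 in ovaries, while TH, DBH and STMN2 were high in some ovaries. TH, an enzyme of catecholamine synthesis, read 1.99 to 2.41 in testes and 8.76, 2.40 and 6.09 in the ovaries of embryos 12, 20 and 2. The ovary of embryo 20, at the testis level for TH, had the highest PRKAG2 A value of the ovaries (10.55) and the lowest PRKAB1 value (9.82). Without embryo 20 the PRKAG2 A difference was -0.67 (adjusted p = 0.00209), and without embryo 12 it was -0.91 (adjusted p = 9.16e-05). Without embryo 2 it was -0.75 (adjusted p = 0.00176, limma). The PRKAB1 difference was -0.68 without embryo 20, -0.52 without embryo 12 and -0.51 without embryo 2 (adjusted p = 0.0155, 0.0485 and 0.0753, limma). The mean over 5 of 7 neuron and glia markers, which share STMN2 with the adrenal list, was 3.62 to 4.13 in testes and 4.25 to 6.81 in ovaries. The 1 measured blood marker of 5 read 12.12 to 13.35 in testes and 13.52 to 14.57 in ovaries, and 4 of 7 heart muscle markers averaged 5.27 to 6.14 in testes and 3.20 to 3.93 in ovaries. The part of adrenal, nerve, blood and muscle RNA in the subunit differences was not tested.

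Between tissues, with the sexes weighted equally, PRKAA1 and PRKAB1 were both higher in heart than in brain and higher in gonads than in heart. PRKAA1 was 3.62-fold higher in gonads than in brain (6.21 against 4.36, adjusted p = 7.8e-10, limma), with no overlap even across sexes. The share of all probe sets without overlap between tissues was not counted, so this gap is not read as a trait of the gene. PRKAA1 was 2.32-fold higher in gonads than in heart (6.21 against 5.00, adjusted p = 3.32e-07, limma). Heart exceeded brain by 1.56-fold (5.00 against 4.36, adjusted p = 0.000372), but the brain mean includes the female values under 4.0, and with the female brain mean set to 4.0 the excess was 1.38-fold, below the minimum. The excess of gonads over brain was then 3.21-fold. The heart excess also fell short of the minimum without male 21 (difference 0.52, adjusted p = 0.00799). Comparisons between tissues also carry a shift of the whole array: over autosomal probe sets shared by the tissues, the median was 0.117 higher in heart than in brain, 0.253 higher in gonads than in brain and 0.136 higher in gonads than in heart. Relative to that shift the heart excess of PRKAA1 was 0.53 (adjusted p = 0.0018), under the fold-change minimum.

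PRKAB1 was higher in gonads than in brain by 2.57 (5.94-fold, adjusted p = 1.66e-12), higher in gonads than in heart by 1.27 (2.41-fold, adjusted p = 3.45e-08) and higher in heart than in brain by 1.30 (2.46-fold, adjusted p = 1.77e-08). No array of one tissue overlapped another tissue, irrespective of sex. The share of all probe sets with such separation was not counted, so it is not read as a trait of PRKAB1. The tissue steps of this gene thus exceeded any of its sex differences.

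PRKAB2 was instead highest in heart. Hearts exceeded brains by 1.69 with probe set B (3.23-fold, adjusted p = 1.77e-09) and by 1.76 with C (3.39-fold, adjusted p = 5.42e-10). Gonads were below hearts by 3.77-fold with A (difference -1.91, adjusted p = 1.38e-08) and by 3.43-fold with C (difference -1.78, adjusted p = 7.44e-10). By C, gonads and brains did not differ detectably (-0.02, 95% interval -0.29 to 0.25, adjusted p = 0.917). The probe sets that share a pair of tissues gave the same direction.

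Whether PRKAB1 and PRKAB2 changed by unequal amounts between tissues was tested within embryos. The log2 difference of PRKAB1 less PRKAB2 was greater in gonad than in brain in 6 of 6 embryos, by 2.57 ± 0.57 (SD; probe set C), and greater in gonad than in heart in 6 of 6, by 3.22 ± 0.50 (probe set A). It was smaller in heart than in brain in 7 of 7 embryos, with a mean change of -0.41 ± 0.34 (probe set B), the smallest change being -0.01. By probe set C the change between heart and brain was negative in 5 of 7 embryos, with a mean of -0.47 ± 0.56, and did not pass (adjusted p = 0.0938). In an exact two-sided sign-flip permutation test on the brightest probe sets each reached the smallest p its number of embryos allows, 0.0312 with 6 and 0.0156 with 7, and all had an adjusted p of 0.0312 over the 3 tests. Each direction was kept when any 1 embryo was left out. All 3 adjusted p stayed at 0.0312 without female 10 or male 9, embryos without arrays of every tissue, and were 0.0625 without any of the other 6 embryos.

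PRKAG2 varied little between the somatic tissues by either probe set (heart minus brain 0.02 for A, adjusted p = 0.817, and -0.19 for B, adjusted p = 0.544). By A, gonads were below heart by 1.51-fold (difference -0.60, adjusted p = 6.61e-06), and below brain by 1.49-fold (difference -0.57, adjusted p = 8.45e-06), which missed the minimum. By B, gonads were below brain by 1.76-fold (difference -0.81, adjusted p = 0.0143), and below heart by 0.62, which was not called (adjusted p = 0.0557). These means join testes and ovaries, which differed by 0.77 on probe set A, so that the gonad ranges overlapped those of both other tissues. The gonad-to-heart call is close to the minimum and was lost without female 12 (-0.51), male 19 (-0.57) or male 9 (-0.56), while gonads fell past the minimum against brain without female 2 (-0.60), female 20 (-0.62) or male 16 (-0.62).

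By gene, 3 of 4 subunits were called between heart and brain, 2 of 4 between gonads and brain and 4 of 4 between gonads and heart, on the brightest probe set with values in both tissues. Relative to the autosomal shift over shared probe sets, a centring added after seeing the data, the counts were 2, 3 and 4, since PRKAA1 lost the heart call and PRKAG2 A passed between gonads and brain (-0.83). Centred on each tissue's own autosomal probe sets they were 2, 3 and 3, since PRKAG2 A then also lost the gonad-to-heart call (-0.29). Tissue differences were common among all probe sets: 33.0% were called higher and 25.5% lower in heart than in brain, 34.9% higher and 23.6% lower in gonads than in brain, and 31.2% higher and 21.2% lower in gonads than in heart.

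The genes whose values ran most like PRKAA1 over the 21 arrays were all Z-linked. Among 6764 genes with values in every array, the highest Pearson correlations were with PPWD1 (0.959), RIOK2 (0.955), GOLPH3 (0.953), TARS (0.941) and PGGT1B (0.940). PPWD1 carries a peptidyl-prolyl isomerase domain, RIOK2 is a kinase of ribosome assembly, GOLPH3 is a Golgi protein, TARS charges threonine tRNA and PGGT1B is the beta subunit of a prenyltransferase. Each had higher means in gonads than in heart and in heart than in brain, and in males than in females of each tissue, as in PPWD1 with 8.82 in male and 8.01 in female brain, 9.21 and 8.21 in heart, and 9.85 and 8.89 in gonads. The partners correlated with PRKAA1 at 0.616 (PRKAB1), -0.166 (PRKAB2 C) and -0.714 (PRKAG2 A). The arrays share tissue and sex in groups, so these are descriptions of the 6 group means more than of single embryos. They also carry the sex difference for which PRKAA1 was picked. Genes with a male excess, as most Z-linked genes have, are therefore favoured by that choice, and nothing is read from their place on Z.

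Around the complex, 92 genes in 7 lists of AMPK regulators, targets and relatives were examined, of which 65 were measured in at least 1 tissue by their brightest probe set. In brain 1 of 57 measured genes was called higher in males and 0 higher in females, near the 1.27% and 0.31% of all probe sets. In heart 1 of 56 was called in each direction, against 1.34% and 0.393% of all probe sets. The called genes, AK6 and AK3, are Z-linked members of the adenylate kinase family, which pass phosphate between AMP and nucleoside triphosphates. In gonads 8 of 59 were called higher in testes and 7 of 59 higher in ovaries, close to the 12.8% and 13.8% of all probe sets, and of the 55 that are not Z-linked 6 and 7 were called. These counts include TBC1D4, EEF2K and AK7, for which only the higher sex had a mean that reached 4.0. As that is the lowest mean of the higher sex in these data, their calls are not read as support for a sex difference.

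AK6, a nuclear adenylate kinase on Z, was called higher in males in all 3 tissues. In brain it read 7.11, 6.92 and 6.93 in males, against 5.34, 5.48, 5.59 and 5.82 in females (2.69-fold, adjusted p = 6.2e-06). It was 2.36-fold higher in males in heart (8.10 against 6.86, adjusted p = 3.68e-05) and 3.25-fold higher in gonads (7.58 in testes against 5.88 in ovaries, adjusted p = 7.68e-08). AK3, a mitochondrial member that uses GTP and is also on Z, was instead lower in male hearts, with 9.84, 9.64 and 9.60 against 10.34, 10.17, 10.40 and 10.26 in females (difference -0.60, 1.52-fold, adjusted p = 0.0259), and was called in neither brain (0.23, adjusted p = 0.623) nor gonads (0.11, adjusted p = 0.576). AK7, autosomal, was lower in testes (2.70 ± 0.06 against 4.59 ± 1.31 in ovaries; difference -1.88, adjusted p = 0.0112). All testes and the ovaries at 3.91 and 3.75 were under 4.0, so this difference rests on 1 ovary at 6.10, and with the testis mean set to 4.0 it was -0.59 (1.5-fold). Only the ovary mean of AK7 reached 4.0, so its p is not read as support. The 2 Z-linked adenylate kinases that were called thus differed in opposite directions in heart alone, where AK3 was close to the fold-change minimum. Only 1 list gene stayed called in heart when each tissue was fitted alone, or without female 2, male 19 or male 21.

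The other Z-linked list genes were called less widely. CKMT2, the mitochondrial creatine kinase of muscle, differed by 0.77 in heart (adjusted p = 0.298), its only measured tissue. RICTOR differed by 0.52 in brain, 0.73 in heart and -0.03 in gonads (adjusted p = 0.304, 0.0656 and 0.932). MELK, a relative of AMPK linked to proliferation, was 2.08-fold higher in testes (8.40 against 7.34 in ovaries, adjusted p = 4e-05), while its 0.38 in brain and 0.40 in heart were not called (adjusted p = 0.37 and 0.318).

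Of the 8 upstream kinases and their scaffolds, 4 were called lower in testes and 0 higher, where 13.8% and 12.8% of all probe sets were, and the list's median difference was -0.53 against 0.02 over all probe sets. The 7 lists were chosen with earlier results of these data known and no list was tested as a set, so this count is not read as a trait of the list. STK11 (LKB1), the main kinase that phosphorylates the AMPK alpha subunit, read 4.27, 4.83, 4.38 and 4.41 in testes, against 5.08, 6.26 and 5.96 in ovaries. Its testes and ovaries did not overlap (difference -1.29, 2.45-fold higher in ovaries, adjusted p = 0.000829). STRADA, the pseudokinase that holds STK11 in its active form, was 1.91-fold higher in ovaries (8.11 in testes against 9.04, adjusted p = 0.000788). CAMKK1, a kinase that acts on AMPK when calcium rises, was 2.18-fold higher in ovaries (4.58 in testes against 5.70, adjusted p = 0.000563). The fourth, CAB39L, a scaffold of STK11, was 1.7-fold higher there (adjusted p = 0.0312). Of the uncalled members, STRADB and CAMKK2 were higher in testes by 0.80 and 0.52 (adjusted p = 0.0945 and 0.528, limma). The STRADB mean in ovaries was 3.62, under 4.0. CAB39 and MAP3K7 were lower in testes, with differences of -0.28 and -0.17 (adjusted p = 0.0746 and 0.406). In brain and heart 7 members were measured and 0 were called, with a median of 0.03 in both. The largest of these differences was that of STK11 in heart, higher in males by 0.87 (7.12 against 6.26, adjusted p = 0.131, limma).

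The other lists had 1 to 3 called genes each in gonads. Of all probe sets, 12.8% were called higher in testes and 13.8% higher in ovaries, so such counts are not read as a trait of a list. Of 9 AMPK-binding regulators and phosphatases, PPM1E, a phosphatase known to act on AMPK in mammalian cells, was called, 2.59-fold higher in testes (adjusted p = 3.62e-07). Of 6 lipid genes, CPT1A, which passes fatty acids into mitochondria, was 2.99-fold higher in testes (adjusted p = 0.000288). Of 13 genes of growth control and autophagy, EEF2K, the kinase of an elongation factor, was higher in testes by 0.74 (adjusted p = 0.00615, limma). With its ovary mean of 3.97 set to 4.0 the difference was 0.71. Only its testis mean reached 4.0, so that p is not read as support. ATG13, of the autophagy-initiating complex, was lower in testes (difference -0.60, adjusted p = 0.00172, limma). Of these 4 genes, 3 were higher in testes and ATG13 in ovaries.

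Of 9 measured genes for glucose uptake, glycogen and transcriptional targets, 3 were called, all higher in testes, as were 12.8% of all probe sets. PPARGC1A, the coactivator of mitochondrial genes, read 8.49, 8.43, 8.37 and 9.0 in testes, against 6.90, 6.63 and 7.06 in ovaries, with no overlap (1.71, 3.27-fold, adjusted p = 8.37e-07). TBC1D4, a regulator of glucose transporter traffic, was 3.59-fold higher (5.75 in testes against 3.91 in ovaries, adjusted p = 0.000686, limma), or 3.37-fold with the ovary mean set to 4.0. Only its testis mean reached 4.0, so that p is not read as support. PFKFB3, which makes the activator of phosphofructokinase, was higher by 0.78 (adjusted p = 0.0103, limma). Of 8 AMPK-related kinases, NUAK2 was 5.23-fold higher in ovaries, with 4.11, 3.97, 3.96 and 3.97 in testes against 5.99, 6.13 and 7.05 (difference -2.39, adjusted p = 0.000245), and MELK, above, was higher in testes. The testis mean of NUAK2 was 4.0, with the testes at 3.97, 3.96 and 3.97 under 4.0, and this low signal limits its fold-change.

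**Figure D5:**
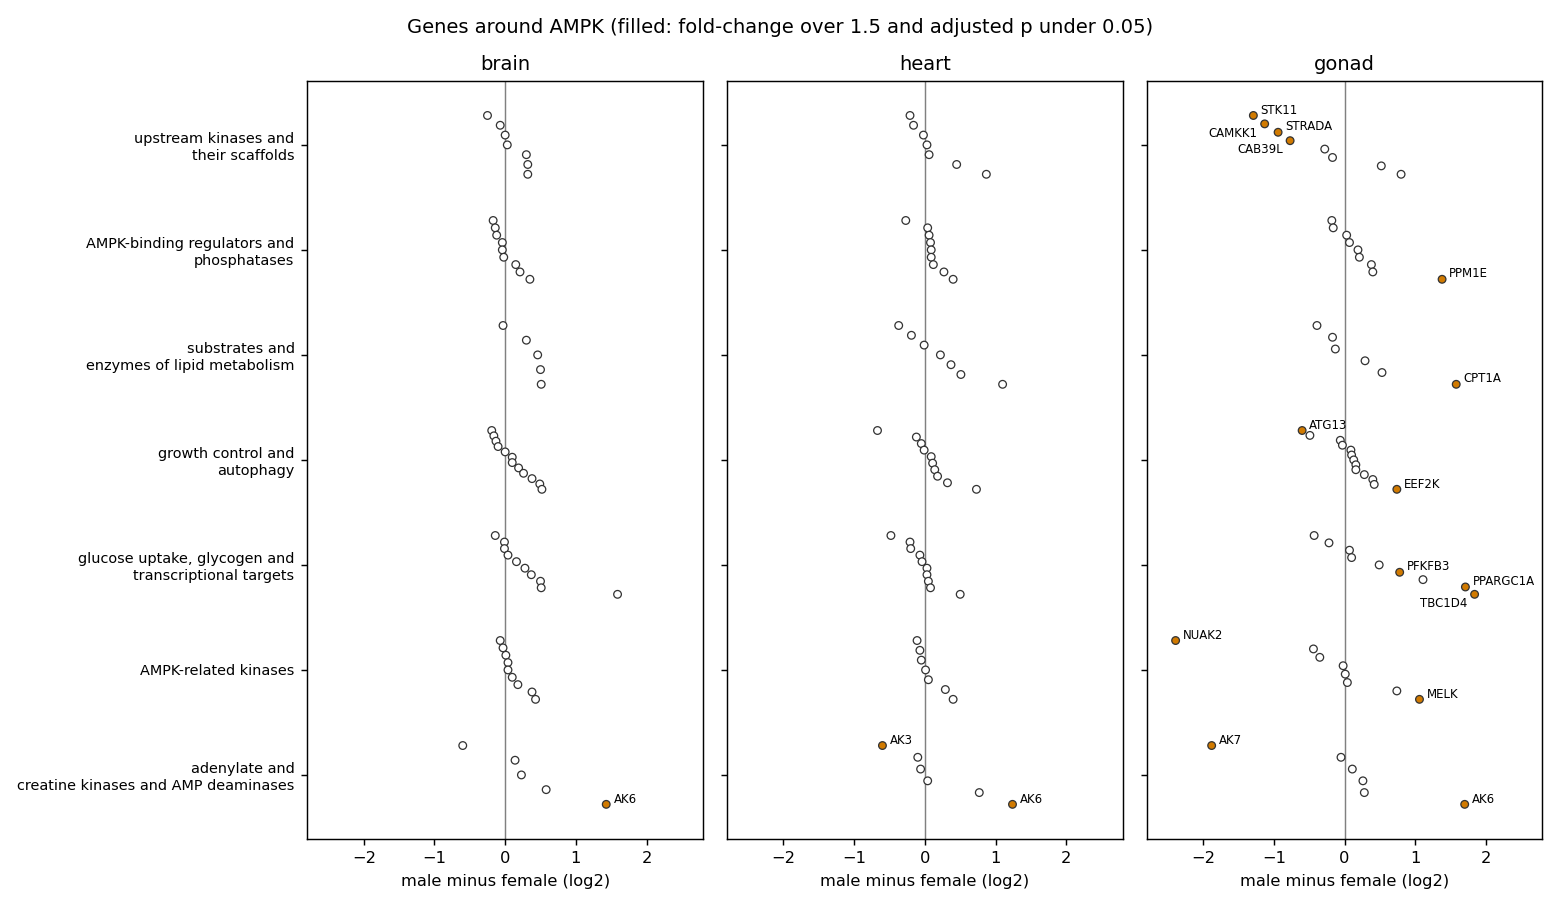
Male minus female log2 difference of each measured gene of the 7 lists around AMPK (points, by list), in brain, heart and gonads; filled and named points are the called genes. Called genes number 1 in brain, 2 in heart and 15 in gonads, where STK11, CAMKK1, STRADA and CAB39L lie below 0, as do ATG13, NUAK2 and AK7 of other lists.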

How the data were processed

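The authors deposited log2 values made by GCRMA background adjustment, quantile normalization and median polish in R 2.4.1 with Bioconductor 1.9, and filtered probe sets on MAS5 calls and on a level not given in the sources used here. Depth has no meaning for these arrays. The labels of hearts and gonads name a human array, but probe set names are those of the chicken array. Probe sets with values numbered 16113 in brain, 15282 in heart and 16499 in gonads, and arrays of 1 tissue correlated at 0.878 to 0.981.

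Probe sets were tied to genes through the array's gene table and placed on GRCg7b by gene number (16063) or symbol (132). Of the rest 85 list several genes, 3592 none, and 2 genes were not in the gene table. Builds differ, so no coordinates are given.

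The study's model was refitted with limma 3.58.1 (R 4.3.3): 6 groups of sex and tissue, 21 arrays, Benjamini-Hochberg over all probe sets of a tissue, called at fold-change over 1.5 and adjusted p under 0.05. The script was tested on simulated data. A gene was read by its brightest probe set with values in the tissues compared. Exact sign-flip tests enumerated all sign patterns with numpy 2.4.6, and scipy 1.17.1 gave their Benjamini-Hochberg adjustment. Named were all members, 5 measured Z neighbours on each side, the 5 genes most like PRKAA1, Z-linked list genes, and up to 3 called genes per list and tissue; CAB39L was added after its values were seen. Members and lists were chosen with earlier results of these data known. Comparisons of PRKAA1 with PRKAA2 and of PRKAG1 with PRKAG2 were planned and had no probe sets.

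Arrays with 1 embryo number are tissues of 1 embryo, as the titles and design text give. Their deviations from group means correlated in all 19 pairs (0.164 to 0.455, median 0.276; median -0.105 between embryos). Alternatives were a replicate block, single-tissue fits, a stricter filter, array weights, autosomal centring, trended variance, averaged probe sets, no fold-change minimum and leaving out each embryo. Setting means under 4.0 to 4.0, centring on shared probe sets and reading PRKAB2 by probe set C in the within-embryo test were added after seeing the data.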

Additional observations from a re-analysis of the deposited data

Results flagged for a closer look

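The female brain of embryo 12 read 3.94 for PRKAA1, while the other female brains read 3.58, 3.51 and 3.58, a gap of 0.831 of the group's range. It is the 1 array that stood apart among 19 groups of subunit values examined, and chance flags about 1 in 20 groups. It remains below every male brain, whose lowest value is 4.80.

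PRKAG2 A differed between tissues in its sex difference. The difference in gonads less that in brain was -0.88 (adjusted p = 0.00179, limma), with -0.77 in gonads and 0.10 in brain. For PRKAG2 B it was -1.08 and did not pass (adjusted p = 0.232).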

How the results depend on the processing

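No called difference turned direction among the 387 single values computed under alternatives: 368 kept their direction and side of the threshold or stayed uncalled, 8 lost a call and 11 gained one. The female excess of PRKAG2 in gonads was called under every alternative run for it, from -0.67 without female 20 to -0.91 with averaged probe sets or without female 12, and with embryo as a random replicate block its adjusted p was 0.000122. The count of partner genes called in gonads was 2 in place of 1 with no fold-change minimum, and 1 to 2 when 1 embryo was left out, PRKAB1 being the gene that joined. PRKAA1 lost its heart excess over brain on autosomal centring (0.29 over each tissue's own probe sets, adjusted p = 0.0579, and 0.53 over shared probe sets, a centring chosen after seeing the data). PRKAG2 A lost the gonad-to-heart call with embryo as a fixed replicate block (-0.56) and on autosomal centring (-0.29), and gained the gonad-to-brain call with array weights (-0.59), on autosomal centring (-0.62, or -0.83 over shared probe sets) and with averaged probe sets (-0.69). The block changed no other call. Pathway genes called in heart were 1 in place of 2 when each tissue was fitted alone, and 1 to 3 without 1 embryo (1 without female 2, male 19 or male 21, and 3 without male 16). The within-embryo changes of PRKAB1 less PRKAB2 without 1 embryo ranged from -0.48 to -0.33 for heart minus brain, 2.49 to 2.8 for gonad minus brain and 3.11 to 3.34 for gonad minus heart, and with PRKAB2 read by probe set C, added after seeing the data, heart minus brain was -0.47 and did not pass (adjusted p = 0.0938). The cause of these moves was not tested. Female brain values of PRKAA1 lie at the low end of the signal, which limits the fold-change there.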
